A study of Mus musculus with 2 samples.

Results

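The genes described here are the core regulators of the cell division cycle, namely the cyclins, the cyclin-dependent kinases (CDKs), the CDK inhibitors, the kinases and phosphatases that switch CDK1, the RB family of pocket proteins and the E2F family. They were taken as a list of 40 gene symbols, and each of the 40 matched 1 row among the 51912 rows of the deposited table that carry Ensembl identifiers. Messenger RNA was sequenced from 4T1 cells, a mouse mammary carcinoma line, in 2 libraries, 1 per group. The co-culture library came from 4T1 cells that had occupied the lower chamber of a transwell, with M2 macrophages in the upper chamber, for 3 days. The control library came from control 4T1 cells, and the labels do not say whether an empty chamber stood above them. A transwell membrane keeps the macrophages apart from the 4T1 cells. The values concern 1 cell line, and whether signals passing through the membrane led to any difference was not tested. For the co-culture library the sample title reads 4T2, whereas the treatment label and the table's column read 4T1.

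Progress through the cell cycle depends on cyclins that appear in turn and activate CDKs. In G1 phase, D-type cyclins with CDK4 and CDK6 phosphorylate the pocket proteins, which releases E2F transcription factors to activate the genes of DNA replication, and cyclin E with CDK2 completes this step. Cyclin A and then the B-type cyclins with CDK1 carry cells through S and G2 phases into mitosis, and their genes are activated late in the cycle by B-MYB and FOXM1 and repressed outside it by the DREAM complex, which contains a pocket protein and an E2F repressor. Carcinoma cells such as 4T1 commonly keep this machinery running continuously.

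All values are in TPM, a relative transcript abundance that corrects for transcript length and library size. Each difference is given as a log2 ratio, log2((co-culture TPM + 1)/(control TPM + 1)), a scale on which weakly expressed genes differ by less than their plain fold. Genes averaging 1 TPM or more over both libraries were called detected, and these numbered 11258. With 1 library per group there is no replicate error and no test, so each difference describes these libraries only. TPM keeps no record of sequencing depth, which is unknown here. The log2 ratios of all detected genes had a median of 0.17, with 25th and 75th percentiles of -0.14 and 0.48. Scaling the co-culture library down by the median ratio of the genes at 10 TPM or more (median centring) lowers log2 ratios by up to 0.12.

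Of 11 epithelial markers 5 were detected, each with a higher value in co-culture, beside 64.5% of all detected genes. Epcam, Krt5 and Cldn7 were listed at 0 in both libraries. Cdh1 had 0.01 TPM in co-culture and 0.04 TPM in the control, and neither Krt14 nor Cldn4 exceeded 0.32 TPM. Krt8, a keratin gene of simple epithelia, had 630 TPM in co-culture and 548 TPM in the control. Krt19, another such keratin gene, had 2.64 TPM in co-culture and 0.18 TPM in the control (log2 ratio 1.63). Cldn3, a tight junction gene, and the keratin gene Krt7 had log2 ratios of 0.72 and 0.19. Of 22 macrophage markers 2 were detected, namely Cd68 at 27.8 TPM in co-culture and 57.7 TPM in the control, and Cd14 at 12.4 TPM in co-culture and 8.87 TPM in the control. The other 20 summed to 0.54 TPM in co-culture and 0.28 TPM in the control, none exceeded 0.27 TPM, and defining markers such as Ptprc, Adgre1, Tyrobp and Itgam were listed at 0 in both.

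Most of the cell-cycle regulators had higher values in co-culture. In these libraries the S, G2 and M phase cyclins with Cdk1 had a median log2 ratio of 1.04 (0.64 to 1.42). The G1 cyclins and kinases had a lower median, -0.21, in an overlapping range (-0.51 to 0.92). Of the 40 genes 37 were detected, 30 of them with higher and 7 with lower values in co-culture. That is 81.1% higher, beside 64.5% of all detected genes. At least 2-fold higher were 6 of the 37, or 16.2%, beside 4.95% of all detected genes, and these were Ccng2, Ccnf, Cdkn2d, Ccna2, Cdk1 and Ccnb1. None was at least 2-fold lower, beside 2.14% of all detected genes. The median log2 ratio of the 37 was 0.59, beside 0.17 for all detected genes. The 40 genes were chosen with earlier results of these data known, so these shares are not those of a list drawn up independently. With median centring 4 of the 37 were at least 2-fold higher (3.61% of all detected genes), since Cdk1 and Ccnb1 then had log2 ratios of 0.93 and 0.89, and 30 of the 37 still had higher values (55.4% of all detected genes). In bulk RNA, more transcript in each cell and a larger share of cells in the phase that makes the transcript cannot be told apart.

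**Figure D1:**
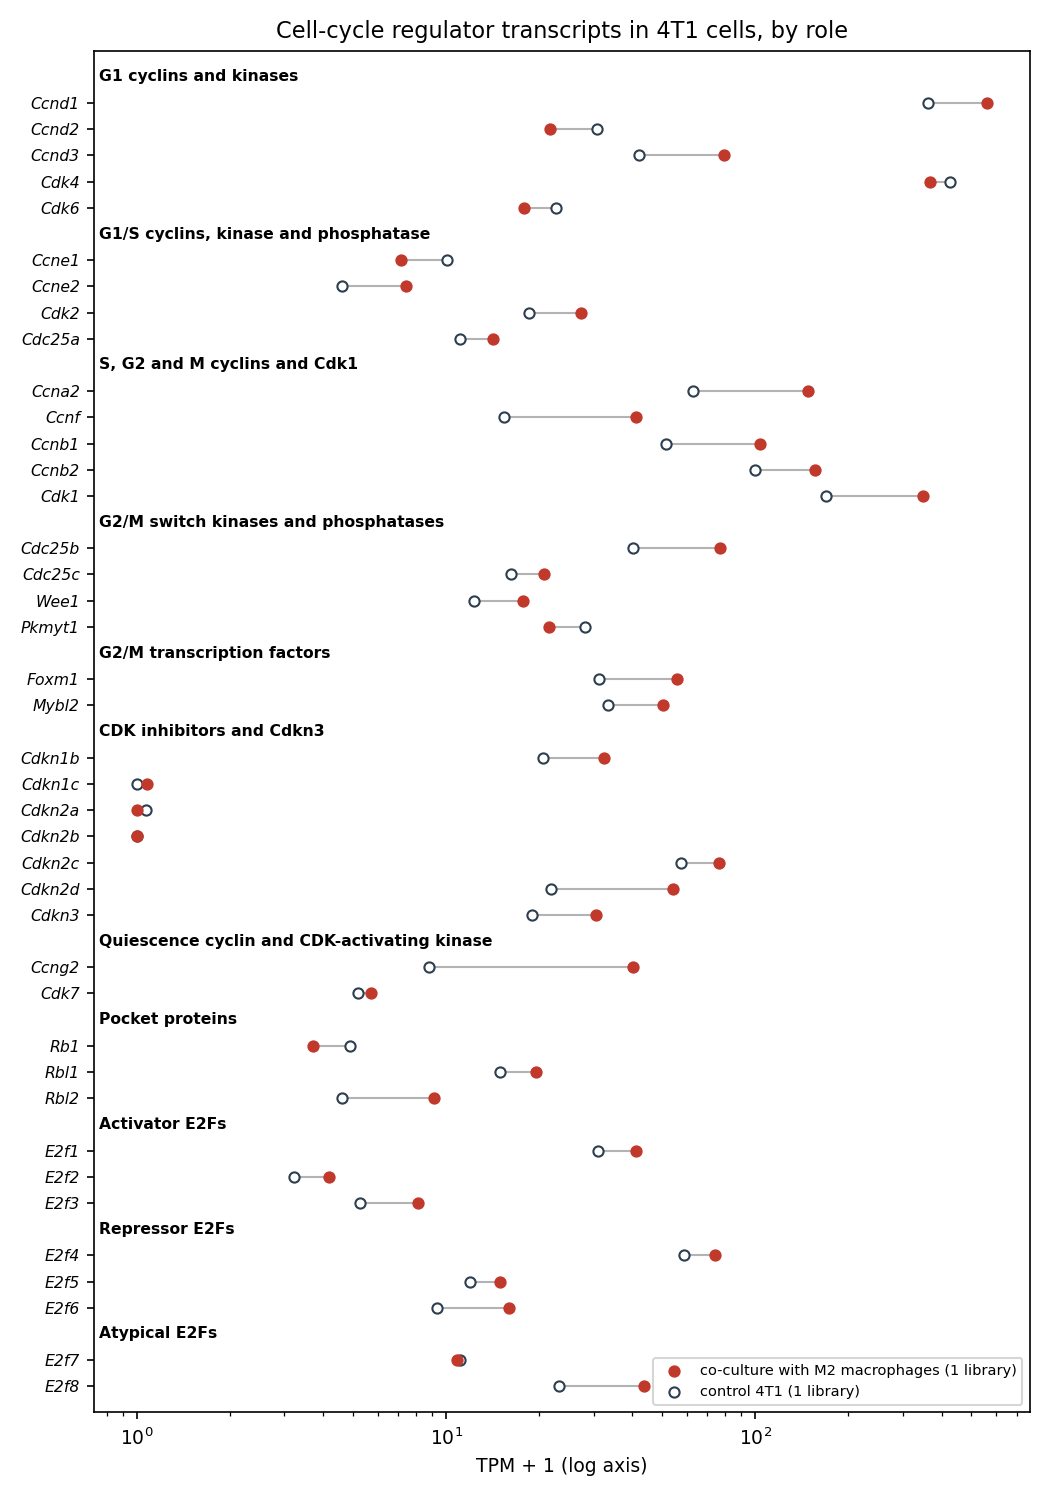
TPM + 1 of each of the 40 regulators on a log axis, grouped by role, with a filled point for the co-culture library and an open point for the control library. The longest line is that of Ccng2, with 39.2 TPM in co-culture and 7.82 TPM in the control, and Cdkn1c, Cdkn2a and Cdkn2b lie at the left edge.

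Ratios varied with the level of a gene. Among all detected genes the median log2 ratio was 0.26 for mean TPM of 1 to 10, 0.13 for 10 to 100 and 0.01 for 100 to 1000. The 8 regulators in the lowest of these ranges had a median of 0.26, the 24 in the middle range 0.57 and the 5 in the highest range 0.64. All 6 regulators that were at least 2-fold higher lay in the middle range (4) or the highest range (2), where 3.94% and 1.95% of all genes were that much higher. The part of this trend in the ratios below was not tested.

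**Figure D2:**
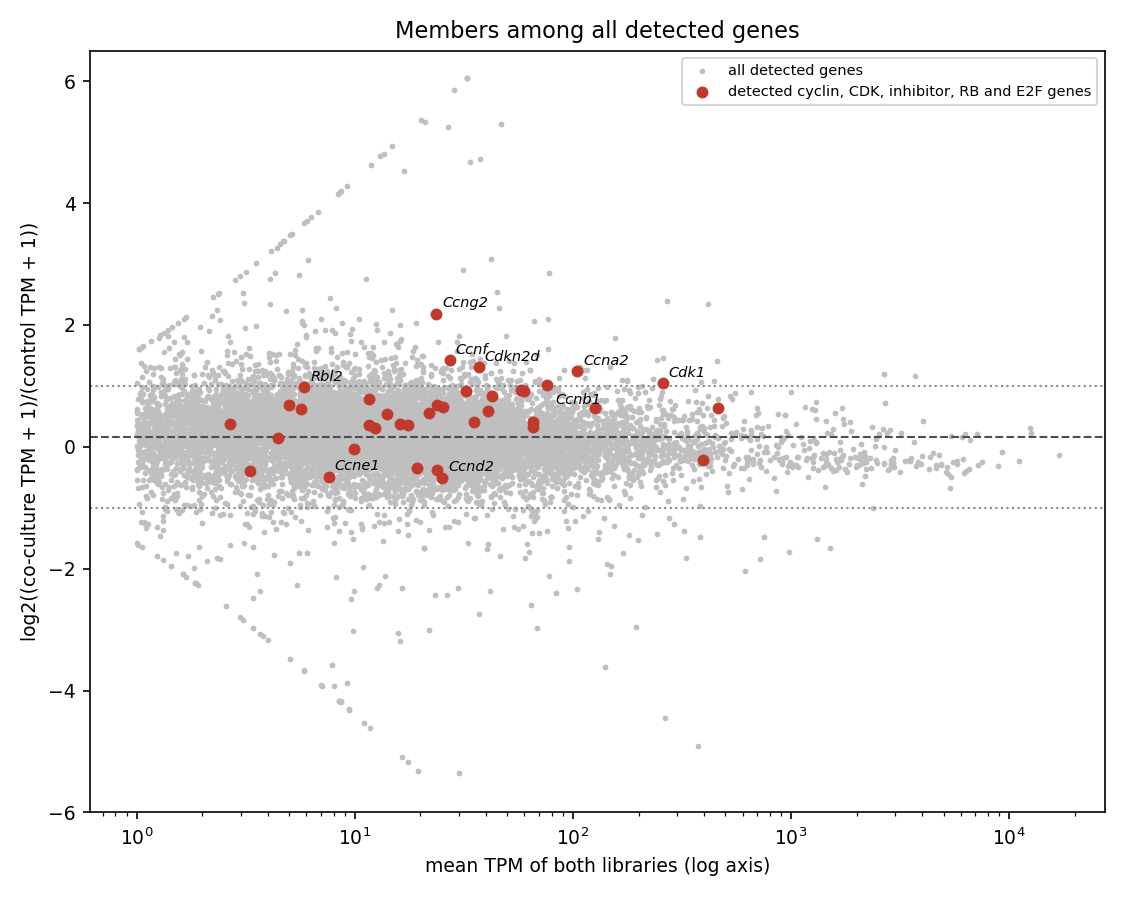
Log2 ratio of co-culture over control against the mean TPM of both libraries (log axis) for the 11258 detected genes in grey and the 37 detected regulators in red. The dashed line is the median of all detected genes, 0.17, and the dotted lines are the 2-fold thresholds, above which 6 regulators lie and below which none lies.

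In G1 phase the cyclins and kinases were divided in direction. Ccnd1, which encodes cyclin D1 and lies on chromosome 7 of GRCm38 from 144929931 to 144939925, had 561 TPM in co-culture and 362 TPM in the control, a log2 ratio of 0.63. Ccnd3 (cyclin D3) had 78.2 TPM in co-culture and 40.9 TPM in the control, a log2 ratio of 0.92. Ccnd2 (cyclin D2) was the D-type cyclin with the lower value in co-culture, at 20.6 TPM against 29.7 TPM in the control, and its log2 ratio of -0.51 was the lowest of the 37 detected regulators with a pseudocount of 1. With a pseudocount of 0.1 Ccne1 was lower, at -0.55 beside -0.52 for Ccnd2. Ccnd1 made up 85.0% of the summed D-type cyclin TPM in co-culture and 83.7% in the control, so the leading D-type cyclin was the same in both libraries. The share of Ccnd2 in this sum was 3.12% in co-culture and 6.86% in the control.

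The catalytic partners of the D-type cyclins were both lower in co-culture. Cdk4 was among the most abundant of the regulators, with 367 TPM in co-culture and 425 TPM in the control (log2 ratio -0.21). Cdk6 had 16.8 TPM in co-culture and 21.7 TPM in the control (-0.35), and Cdk4 made up 95.6% of the sum of both kinases in co-culture and 95.1% in the control. The summed D-type cyclins were thus 660 TPM in co-culture and 433 TPM in the control, while the summed Cdk4 and Cdk6 were 384 TPM in co-culture and 447 TPM in the control. None of these 5 G1 genes was 2-fold different, and their median log2 ratio was -0.21. Ccnd3 overlaps the opposite-strand gene Bysl by 361 bases, and Bysl had 15.4 TPM in co-culture and 27.4 TPM in the control, the other direction. Ccnd2 overlaps the antisense gene Gm43126, which had 11.8 TPM in co-culture and 8.44 TPM in the control. Overlaps here and below are of whole gene spans, introns included, so the transcripts may share fewer bases. The labels do not say whether reads were assigned by strand, and the part of such overlaps in these values was not tested.

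At the transition from G1 to S phase the E-type cyclins differed in opposite directions. Ccne1 (cyclin E1) had 6.14 TPM in co-culture and 9.03 TPM in the control, a log2 ratio of -0.49. Ccne2 (cyclin E2) had 6.41 TPM in co-culture and 3.61 TPM in the control, a log2 ratio of 0.68. Their sum was almost the same in both libraries, 12.55 TPM in co-culture and 12.64 TPM in the control, while the share of Ccne2 in it was 51.1% in co-culture and 28.6% in the control. The gene span of Ccne2 overlaps that of Ints8 on the opposite strand by 5622 bases, introns included. The longest Ccne2 transcript has 3006 bases. Ints8 had 24.99 TPM in co-culture and 11.8 TPM in the control, a difference in the same direction. Its part in the Ccne2 value was not tested.

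Cdk2, the kinase that cyclin E and cyclin A activate, had 26.3 TPM in co-culture and 17.5 TPM in the control (log2 ratio 0.56). Cdc25a, a phosphatase that removes inhibitory phosphates from CDK2, had 13.2 TPM in co-culture and 10.1 TPM in the control (0.36). The 9 genes of G1 and of the G1/S transition together had a median log2 ratio of 0.36. Of these, 5 were higher (55.6%) and 4 lower, beside 64.5% of all detected genes higher.

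The cyclins of S, G2 and M phases and Cdk1 were all higher in co-culture, beside 64.5% of all detected genes. Their median log2 ratio was 1.04. Of these 5 genes 4 passed 2-fold, beside 4.95% of all detected genes, and with median centring 2 of the 5 did, beside 3.61%. Ccnf, which encodes cyclin F, a substrate receptor of an SCF ubiquitin ligase rather than a CDK activator, lies on chromosome 17 from 24222198 to 24251484. It had 40.1 TPM in co-culture and 14.3 TPM in the control, a log2 ratio of 1.42 that ranked 176th from the highest among the 11258 detected genes. Ccna2 (cyclin A2), on chromosome 3 from 36564865 to 36572150, had 147 TPM in co-culture and 61.9 TPM in the control (1.24). Cdk1, the mitotic kinase on chromosome 10 from 69335146 to 69352938, had 347 TPM in co-culture and 168 TPM in the control (1.04).

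Both B-type cyclins, the partners of CDK1 in mitosis, were higher. Ccnb1, on chromosome 13 from 100778650 to 100786570, had 102 TPM in co-culture and 50.4 TPM in the control, a log2 ratio of 1.01 that only just reached the threshold. Ccnb2 had 155 TPM in co-culture and 98.7 TPM in the control (0.64), and it was the more abundant B-type cyclin in both libraries. The 5 genes summed to 791 TPM in co-culture and 393 TPM in the control. Ccna2 overlaps Exosc9 on the opposite strand by 863 bases, and Exosc9 had 21.9 TPM in co-culture and 24.3 TPM in the control.

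**Figure D3:**
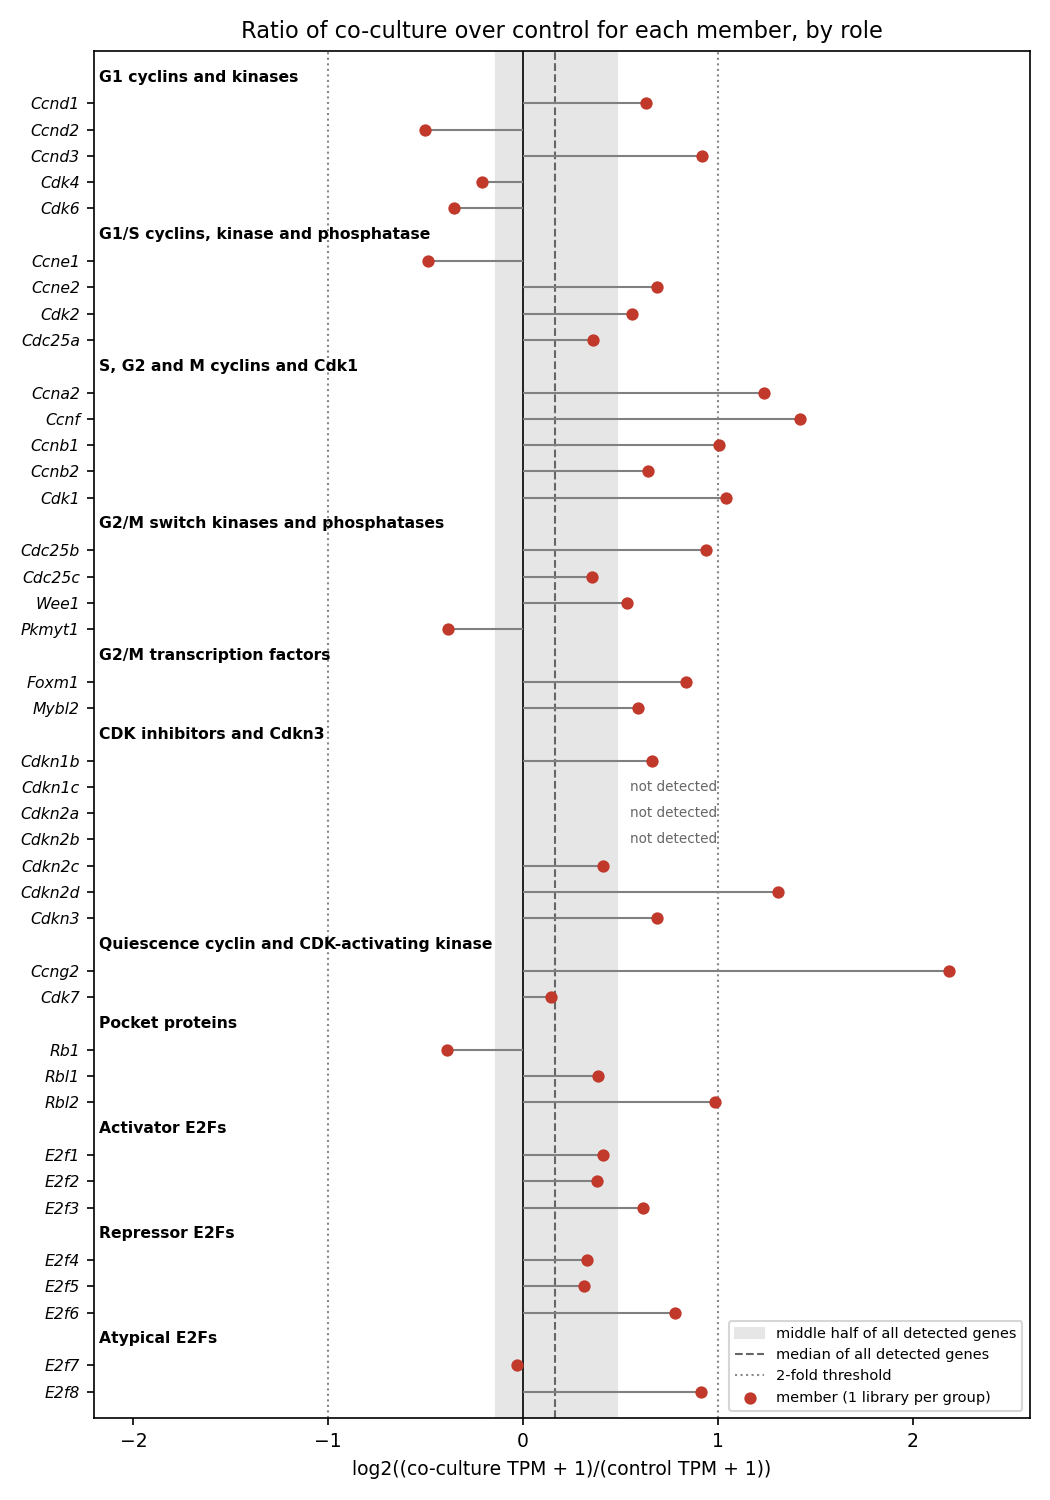
Log2 ratio of co-culture over control for each detected regulator, grouped by role. The grey band spans the 25th to 75th percentiles of all detected genes (-0.14 to 0.48), the dashed line is their median and the dotted lines mark 2-fold. The S, G2 and M cyclins with Cdk1 lie between 0.64 and 1.42, all to the right of the band, and the G1 genes lie on both sides of 0.

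The promoters of these genes are shown for the elements through which late cell-cycle genes are known to be controlled. Genes of G2 and M phases commonly carry a CHR element (cell cycle genes homology region), which the MuvB core of the DREAM complex binds, together with CCAAT boxes bound by NF-Y, whereas E2F sites are typical of replication genes. The RefSeq table (GRCm38.p6) held promoters for 28 of the 40 genes, 33 in all, as some genes have more than 1 start site. Ccna2, Foxm1, Cdc25c, Wee1 and Pkmyt1 were among those without an entry. The 250 bases before each RefSeq start were searched on both strands for TTTGAA or TTCGAA (CHR), CCAAT, and TTCCCGC or TTGGCGC (E2F). The windows below run 5′ to 3′ along the gene, and capitals mark these matches. They are those of Cdk1, Ccnf, Ccnb1 and Ccnb2, the cyclins of S, G2 and M phases and Cdk1 as far as the table held them. The other members at least 2-fold higher that have an entry held fewer matches. The Ccng2 window, that of the highest ratio, held 0 matches of any kind, and the Cdkn2d window held 1 CCAAT box with neither a CHR nor an E2F match.
Cdk1: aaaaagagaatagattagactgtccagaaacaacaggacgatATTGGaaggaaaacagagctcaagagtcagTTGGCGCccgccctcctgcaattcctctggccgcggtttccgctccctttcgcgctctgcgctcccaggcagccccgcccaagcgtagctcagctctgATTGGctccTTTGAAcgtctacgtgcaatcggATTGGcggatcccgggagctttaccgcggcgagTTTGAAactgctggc
Ccnf: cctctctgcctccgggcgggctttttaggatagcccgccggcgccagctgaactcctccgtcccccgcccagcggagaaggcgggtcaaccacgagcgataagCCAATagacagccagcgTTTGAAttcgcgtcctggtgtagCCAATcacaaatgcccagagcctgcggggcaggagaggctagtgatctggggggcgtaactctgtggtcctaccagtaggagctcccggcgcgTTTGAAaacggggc
Ccnb1: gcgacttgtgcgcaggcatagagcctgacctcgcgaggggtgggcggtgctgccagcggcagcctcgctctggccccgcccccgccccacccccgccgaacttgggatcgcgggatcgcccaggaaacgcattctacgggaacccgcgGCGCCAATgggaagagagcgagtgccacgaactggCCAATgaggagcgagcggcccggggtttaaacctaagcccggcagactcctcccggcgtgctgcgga
Ccnb2: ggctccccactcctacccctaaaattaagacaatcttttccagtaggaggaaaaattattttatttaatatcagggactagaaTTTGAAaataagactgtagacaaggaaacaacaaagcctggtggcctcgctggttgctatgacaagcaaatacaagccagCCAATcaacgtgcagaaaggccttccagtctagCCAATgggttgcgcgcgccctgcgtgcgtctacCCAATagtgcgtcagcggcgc

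The Cdk1 window (chr10:69352913-69353162, minus strand) held 2 CHR matches, the nearer one beginning 15 bases before the start, 3 CCAAT boxes and 1 E2F match. The Ccnf window (chr17:24251410-24251659, minus strand) held 2 CHR matches, the nearer one 14 bases before the start, and 2 CCAAT boxes at 147 and 107 bases. The Ccnb2 window (chr9:70421555-70421804, minus strand) held 3 CCAAT boxes at 87, 54 and 21 bases before the start and 1 CHR match at 167 bases. Another CHR match begins at base 5 past the RefSeq start, outside this window. The Ccnb1 window (chr13:100786487-100786736, minus strand) held 2 CCAAT boxes at 99 and 67 bases, the first of which overlaps an E2F match. It held neither TTTGAA nor TTCGAA. Other spellings of a CHR element were not searched, so this does not show that the promoter lacks one. The GENCODE start of Ccnb1 lies 84 bases upstream of the RefSeq start, that of Ccnf 75, that of Cdk1 26, that of Ccng2 316 and that of Cdkn2d 198. For Ccnb2 this offset is -7, that is, downstream. Distances and the presence of a match therefore depend on the start chosen. The Ccng2 window lies wholly past its GENCODE start, and most of the Cdkn2d window does, so these are not like the other windows. A match describes the letters and is no evidence that a factor was bound in these cells.

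Counted over the 33 promoters of the regulators, 27.3% held a CHR match, 48.5% a CCAAT box and 27.3% an E2F match, beside 17.1%, 33.9% and 5.62% of the 32851 promoters in the table. A CHR match and a CCAAT box together occurred in 21.2% of the regulators' promoters and in 6.02% of all promoters. The set of all promoters was taken whether or not the genes were detected here. No share over detected genes only was computed. Among the 6 promoters of S, G2 and M phase regulators 3 held both, and among the 10 promoters of RB and E2F genes 3 did. Below 2-fold, 1 promoter each of Cdkn3 (log2 ratio 0.68), E2f3 (0.61) and E2f2 (0.38) held 1 CHR match and 3 CCAAT boxes. Any link between these matches and the ratios was not tested. Of the 25 promoters of G2/M target genes (listed further on) 32.0% held both, and of the 27 promoters of E2F target and replication genes 14.8% did. These shares depend on the window. When the bases just past the start were searched as well, 72.0% of the G2/M target promoters held both, beside 24.2% of the regulators' promoters, 14.8% of the E2F target and replication promoters and 7.53% of all promoters.

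Of the 4 enzymes that switch CDK1 on and off at mitotic entry 3 were higher, a share near the 64.5% of all detected genes, and none was 2-fold different. Cdc25b, a phosphatase that activates CDK1, had 76.1 TPM in co-culture and 39.2 TPM in the control, a log2 ratio of 0.94. Cdc25c, a related phosphatase, had 19.8 TPM in co-culture and 15.3 TPM in the control (0.35). Cdc25b was the most abundant of the 3 CDC25 genes and made up 69.8% of their summed TPM in co-culture and 60.8% in the control.

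The opposing kinases differed in direction. Wee1, whose product inhibits CDK1 in the nucleus, had 16.7 TPM in co-culture and 11.3 TPM in the control (log2 ratio 0.53). Pkmyt1, whose product inhibits CDK1 at membranes, had 20.5 TPM in co-culture and 27.1 TPM in the control (-0.39). Their summed level was 37.2 TPM in co-culture and 38.4 TPM in the control, while the 3 CDC25 genes summed to 109 TPM in co-culture and 64.5 TPM in the control. Pkmyt1 overlaps Paqr4 on the opposite strand by 550 bases, and Paqr4 had 13.9 TPM in co-culture and 8.56 TPM in the control.

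Both transcription factors of late cell-cycle genes were higher by less than 2-fold. Foxm1 had 54.7 TPM in co-culture and 30.2 TPM in the control (0.84), and Mybl2, which encodes B-MYB, had 49.2 TPM in co-culture and 32.4 TPM in the control (0.59). Across the 11 genes of S, G2 and M phases, including the switch enzymes and both factors, 10 were higher in co-culture, beside 64.5% of all detected genes, and the median log2 ratio was 0.84. At least 2-fold higher were 4 of the 11, and 2 of the 11 with median centring, beside 4.95% and 3.61% of all detected genes.

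The INK4 inhibitors, which bind CDK4 and CDK6, divided into a detected pair and an undetected pair. Cdkn2d (p19 INK4d), on chromosome 9 from 21288410 to 21291407, had 53.1 TPM in co-culture and 20.8 TPM in the control, a log2 ratio of 1.31. Cdkn2c (p18 INK4c) had 75.2 TPM in co-culture and 56.3 TPM in the control (0.41). Cdkn2d thus made up 41.4% of the summed INK4 TPM in co-culture and 27.0% in the control.

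Cdkn2a, which encodes p16 INK4a and p19 ARF from overlapping reading frames, was listed at 0 in co-culture and had 0.07 TPM in the control. Cdkn2b (p15 INK4b) was listed at 0 in both libraries. These neighbours lie on chromosome 4, Cdkn2a from 89274471 to 89294653 and Cdkn2b from 89306299 to 89311039. The next protein-coding gene on the Cdkn2a side, Mtap, an enzyme gene of methionine salvage from 89137122 to 89181081, had 222 TPM in co-culture and 166 TPM in the control. The next on the Cdkn2b side, Dmrta1, was listed at 0 in both. Gene-level values cannot show the state of the locus.

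Among the inhibitors of the CIP/KIP family, Cdkn1b (p27) had 31.5 TPM in co-culture and 19.5 TPM in the control, a log2 ratio of 0.66. Cdkn1c (p57) had 0.08 TPM in co-culture and was listed at 0 in the control, so that it was not detected. Cdkn3, which encodes a phosphatase that acts on CDKs, had 29.5 TPM in co-culture and 17.99 TPM in the control (0.68). All 4 detected genes of this group of 7 therefore had higher values in co-culture, beside 64.5% of all detected genes. The S, G2 and M cyclins were higher in the same library.

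Ccng2 had the highest ratio of all the regulators. It encodes cyclin G2, an atypical cyclin that is linked to cell-cycle arrest and is a known target of FOXO transcription factors. This gene, on chromosome 5 from 93267257 to 93276231, had 39.2 TPM in co-culture and 7.82 TPM in the control, 5.01-fold. Its log2 ratio of 2.19 ranked 59th from the highest among the 11258 detected genes. Cdk7, the catalytic subunit of the CDK-activating kinase, had 4.71 TPM in co-culture and 4.17 TPM in the control, a log2 ratio of 0.14 that was -0.01 with a trimmed mean scaling of the libraries.

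The pocket proteins differed in direction among themselves. Rbl2 (p130), the pocket protein of quiescent cells and of the DREAM complex, had 8.11 TPM in co-culture and 3.61 TPM in the control, a log2 ratio of 0.98 just under the threshold. Rbl1 (p107) had 18.5 TPM in co-culture and 13.9 TPM in the control (0.38). Rb1, the retinoblastoma gene itself, had 2.72 TPM in co-culture and 3.87 TPM in the control (-0.39). Rbl1 was the most abundant of the 3 in both libraries, and the share of Rb1 in their sum was 9.28% in co-culture and 18.1% in the control. The gene span of Rbl2, introns included, overlaps that of Aktip on the opposite strand by 12061 bases. Aktip had 14.6 TPM in co-culture and 13.9 TPM in the control. The gene span of Rb1 overlaps that of Rcbtb2, also on the opposite strand, by 24171 bases, introns included. Rcbtb2 had 37.3 TPM in co-culture and 29.4 TPM in the control. The longest transcripts of Rbl2 and Rb1 have 4925 and 4656 bases, fewer than these overlaps.

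E2F transcripts were higher by less than 2-fold, with 1 exception in direction. Among the activator E2Fs, E2f1 had 40.3 TPM in co-culture and 30.1 TPM in the control (0.41), E2f2 had 3.18 TPM in co-culture and 2.21 TPM in the control (0.38), and E2f3 had 7.08 TPM in co-culture and 4.28 TPM in the control (0.61). E2f1 made up 79.7% of the activator sum in co-culture and 82.2% in the control.

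Among the E2Fs that act mainly as repressors, E2f4 was the most abundant E2F in both libraries, with 72.8 TPM in co-culture and 57.8 TPM in the control (0.33). E2f5, its close relative, had 13.9 TPM in co-culture and 10.97 TPM in the control (0.31). E2f6, which acts without pocket proteins, had 15.0 TPM in co-culture and 8.33 TPM in the control (0.78). The 3 repressors together had 102 TPM in co-culture and 77.1 TPM in the control.

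The atypical E2Fs, repressors that bind DNA without a DP partner and limit late E2F activity, differed from each other. E2f8 had 42.8 TPM in co-culture and 22.2 TPM in the control, a log2 ratio of 0.91 and the highest of the family. E2f7 had 9.82 TPM in co-culture and 10.1 TPM in the control (-0.03). Over the 8 E2F genes the median log2 ratio was 0.40, and none was 2-fold different. Higher values were found for 87.5% of them, beside 64.5% of all detected genes.

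Other genes of the same pathway were examined in lists drawn up by role, with earlier results of these data known. The counts below stand beside 64.5% of all detected genes higher and 4.95% at least 2-fold higher, or 55.4% and 3.61% with median centring. In the list of 26 G2/M target genes, each had a higher value in co-culture, and the median log2 ratio was 1.01. At least 2-fold higher were 15 of the 26, or 57.7%, and with median centring 7 of the 26. The largest ratio was that of Mki67, which encodes Ki-67, a marker of dividing cells, with 25.2 TPM in co-culture and 6.86 TPM in the control, followed by Cenpe, a kinetochore motor gene, with 21.6 TPM in co-culture and 5.82 TPM in the control. Cenpf and Kif11 had log2 ratios of 1.41 and 1.39. Transcript lengths were 10061 bases for Mki67, 7910 for Cenpe, 11130 for Cenpf and 4819 for Kif11. The list had a median of 3671 bases and 43.35% GC, beside 3205.5 bases and 49.8% GC for all detected genes. No ratios with length and GC trends removed were computed for this list, so the part of such trends in its values was not tested. In the list of 30 E2F target and replication genes, 23 were higher (76.7%) and 7 lower, none by 2-fold, with a median of 0.24. With median centring 20 of the 30 were higher. Its largest ratios were 0.89 for Slbp, 0.86 for Uhrf1, 0.69 for Orc1 and 0.64 for Rrm1. Genes of E2F-driven replication and genes of mitosis thus had medians of 0.24 and 1.01 beside 0.17 for all detected genes, and the difference between these lists was not tested.

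Regulators of cyclin and inhibitor stability were examined next. Of 26 genes of the APC/C and SCF ubiquitin ligases and the CKS proteins, 25 were higher in co-culture, or 96.2%, and 20 with median centring, and the median was 0.44. At least 2-fold higher were 2 of the 26, or 7.69%, a share near that of all detected genes. Skp2, the SCF subunit that targets p27 for degradation, had 28.3 TPM in co-culture and 8.85 TPM in the control, a log2 ratio of 1.57. Fbxw7, the SCF subunit that targets cyclin E, had 4.69 TPM in co-culture and 1.81 TPM in the control (1.02, and 0.92 with median centring). Cks2 and Fbxo5, which encodes the APC/C inhibitor EMI1, had ratios of 0.96 and 0.93.

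The 7 detected partners of E2F and members of the DREAM complex had a median of 0.19, none 2-fold different, with 6 higher (85.7%) and 1 lower. Tfdp1, which encodes the main DP partner of E2Fs, had 86.8 TPM in co-culture and 49.4 TPM in the control (0.80). Lin52 and Lin54 had ratios of 0.68 and 0.48, and Tfdp2 had -0.21. Cyclins and CDKs of transcription and of other processes served as a contrast within the same protein families. Of 31 such genes 25 were detected, 17 higher and 8 lower, with a median of 0.27. Higher values were thus found for 68.0% (14 of the 25 with median centring) and a 2-fold higher value for 1 gene, or 4.0%, both near the shares of all detected genes. That gene was Cdk19, a kinase of the Mediator complex, with 5.84 TPM in co-culture and 2.39 TPM in the control, and it was below 2-fold with median centring (0.91). Cdk12, Cdk14 and Cdk10 had ratios of 0.76, 0.65 and -0.69.

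**Figure D4:**
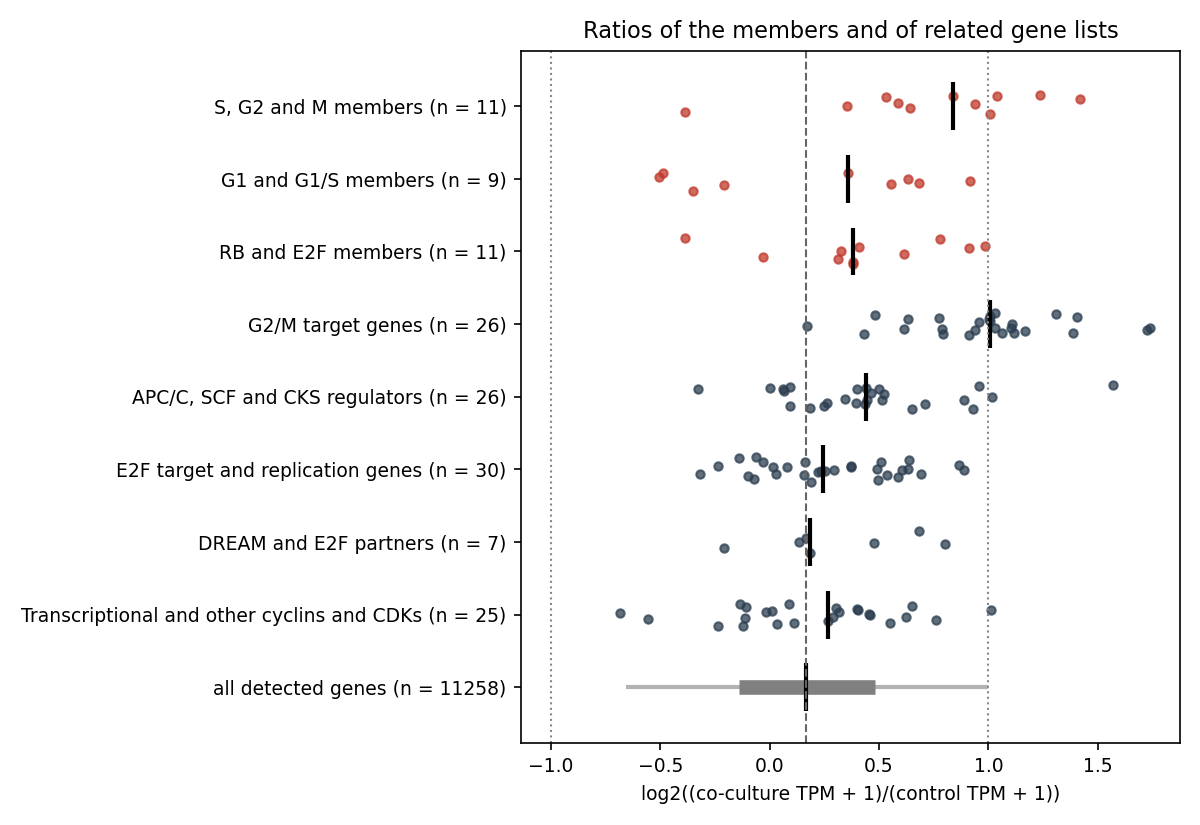
Log2 ratios of co-culture over control by list, with red points for the regulators, dark points for the related lists and a black bar for each median. For all detected genes the thick bar spans the 25th to 75th and the thin bar the 5th to 95th percentile. The medians are 0.84 for the S, G2 and M regulators, 0.36 for the G1 and G1/S regulators and 0.38 for the RB and E2F genes, beside 0.17 for all detected genes.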

How the data were processed

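RNA sequencing values of 2 libraries were used, 1 of co-cultured and 1 of control 4T1 cells, grouped by their treatment labels. The authors deposited 1 table of TPM, rounded to 2 decimals, with 52796 rows, of which 51912 carried Ensembl identifiers and were used; 51633 of these matched a symbol in GENCODE M21 (GRCm38). HISAT2 2.1.0, RSEM 1.2.31 and build GRCm38.p5 are listed without roles, per the submitters' processing notes; the annotation release, strandedness and any filters were not stated there. RSEM divides reads shared between genes, so values of paralogs, pseudogene parents and overlapping genes are uncertain.

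From the deposited TPM, log2 ratios with a pseudocount of 1 were computed for genes averaging 1 TPM or more, and 2-fold means a log2 ratio of 1 or -1. TPM gives no counts, so no intervals or floors were computed, and 1 library per group allows no test. All 40 regulators are reported; from each related list up to 4 detected genes with the largest absolute ratio are named. The members and lists were chosen with earlier results of these data known. Promoters are those of RefSeq. The calculations were checked on simulated data. Python 3.11.15, pandas 2.3.3, numpy 2.4.6, statsmodels 0.14.6 and matplotlib 3.10.9 were used.

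Alternatives tried were a pseudocount of 0.1 or 5, no filter on expression, a minimum mean of 10 TPM, median ratio scaling, a trimmed mean scaling (trims of 30% and 5%), rescaling without mitochondrial and the 20 most abundant genes, removal of lowess trends with transcript length and GC content (span 0.3), and a log2 threshold of 0.5. Searching the whole 300-base promoter window was added after seeing the data.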

Additional observations from a re-analysis of the deposited data

How the results depend on the processing

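The count of regulators at least 2-fold higher was 4 to 7 under the alternatives that kept this threshold, beside 6. It was 7 with a pseudocount of 0.1 and without mitochondrial and the most abundant genes, beside 7.87% and 5.76% of all detected genes. With a pseudocount of 5 it was 5, beside 1.77%, and with the trimmed mean scaling 4, beside 3.06%. No regulator was at least 2-fold lower under any of them, beside 0.545% to 3.14% of the genes kept by each setting. With a log2 threshold of 0.5 the counts were 21 higher and 1 lower, beside 23.8% and 8.22% of all detected genes, which follows from the lower threshold. The median log2 ratio of the detected regulators, 0.59, was 0.42 with a pseudocount of 5, 0.47 with median ratio scaling and 0.40 with the trimmed mean scaling, while the median of all detected genes was 0.12, 0.06 and -0.01 under the same settings. Of the 37 detected regulators 36 kept the sign of their ratio under each alternative that gave a value, and Cdk7 was the exception (-0.01 with the trimmed mean scaling). This count was largely fixed in advance, since no pseudocount or expression filter can change a sign. Both scalings only lower the co-culture values, so they could not turn a lower value into a higher one. Ccnb1 was below 2-fold with a pseudocount of 5, median ratio scaling and the trimmed mean scaling (0.95, 0.89 and 0.82), and Cdk1 with both scalings and after length and GC trends were removed (0.93, 0.85 and 0.92); the scalings and the pseudocount lower ratios by construction. Rbl2 passed 2-fold with a pseudocount of 0.1 (1.15) and without mitochondrial and the most abundant genes (1.03). The median of the G1 cyclins and kinases, -0.21, is the ratio of Cdk4. It was -0.07 after length and GC trends were removed and -0.40 with the trimmed mean scaling. The S, G2 and M cyclins with Cdk1 had medians of 1.03 and 0.85 under the same settings. Searching 300 bases gave 10 promoters with a CHR match, 18 with CCAAT and 10 with an E2F match, beside 9, 16 and 9 of the 33. Among the 25 promoters of G2/M target genes, the same search gave 20 with a CHR match and 18 with both CHR and CCAAT, beside 8 and 8. No paired analysis was possible because each group has 1 library, and no library could be left out for the same reason. Depth is unknown, so precision at low TPM, as for Rb1, E2f2 and Cdkn2a, cannot be stated.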

Other observations

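Cdkn1a, which encodes the CDK inhibitor p21 and is not among the 40 regulators, had 27.5 TPM in co-culture and 9.26 TPM in the control, a log2 ratio of 1.47, so it was higher in the library in which Cdkn1b and Cdkn2d were also higher. It was chosen after its values were seen.

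Among the cyclins and CDKs of transcription, Cdk8, a kinase of the Mediator complex, stood out by its level, with 660 TPM in co-culture and 540 TPM in the control. Its cyclin partner gene Ccnc had 5.62 TPM in co-culture and 6.81 TPM in the control, and its paralog Cdk19 had 5.84 TPM in co-culture and 2.39 TPM in the control. Within the same Mediator module, Med12 had 22.5 TPM in co-culture and 20.2 TPM in the control, and Med13 had 11.3 TPM in co-culture and 6.61 TPM in the control. The annotated gene that overlaps Cdk8, the processed pseudogene Gm15739, was listed at 0 in co-culture and had 0.07 TPM in the control. TPM values alone do not show whether the reads assigned to Cdk8 came from this gene, so its level is uncertain. These genes were also chosen after their values were seen.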
